A study of Mus musculus with 6 samples.

Results

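The liver sets the iron balance of the body, and 10 genes of that task were taken from the 16123 genes of the deposited comparison of wild type (WT) and *Txndc5*-deficient (KO) mouse liver. They were chosen by symbol as *Hamp*, *Hamp2*, *Tfrc*, *Tfr2*, *Trf*, *Fth1*, *Ftl1*, *Slc40a1*, *Slc11a2* and *Hfe*, and all 10 were found in the table. Both genotypes were male mice, 2 months old at the start, born of heterozygous crosses, fed a purified chow for 4 weeks and fasted for 16 h before the liver was taken. WT mice carried the background C57BL/6Rj, and KO mice were of the strain C57BL/6JRj-Txndc5<em2Mdnp>/Ciba, in which CRISPR/Cas9 removed exon 3 of *Txndc5* in all cells. *Txndc5* encodes a protein disulfide isomerase of the endoplasmic reticulum. The KO line descended from 1 founder male, so that the lesion was studied in a single line. RNA of 3 mice was pooled for each library, with 3 WT libraries (pools 1, 2 and 5) and 3 KO libraries (pools 2, 3 and 4).

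Hepatocytes secrete hepcidin, the hormone that binds the iron exporter ferroportin and has it degraded, so that less iron enters plasma from the gut and from macrophages. Hepcidin transcription follows plasma iron through bone morphogenetic proteins (BMPs) released by sinusoidal endothelial cells, their receptors and SMAD proteins, with the membrane proteins HFE, transferrin receptor 2 and hemojuvelin as part of the sensor. Inflammation raises it through interleukin 6 (IL-6) and STAT3. Inside cells, iron regulatory proteins bind a hairpin, the iron-responsive element, and thereby block translation of ferritin and ferroportin mRNA or protect the transferrin receptor mRNA from decay, when iron is low.

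The iron-responsive elements are shown because they tie 4 of the 10 genes to that control. In the GENCODE M21 transcripts of the mouse build GRCm38, the letters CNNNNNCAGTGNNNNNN were searched on the transcribed strand of the untranslated regions, with the 5 bases on either side of the 6-base loop required to pair. Capitals mark these 17 bases, whose positions follow each name.
*Fth1*, 5′UTR, chr19:9982738-9982754, plus strand: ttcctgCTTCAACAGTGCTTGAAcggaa
*Ftl1*, 5′UTR, chr7:45459785-45459801, minus strand: gtcttgCTTCAACAGTGTTTGAAcggaa
*Slc40a1*, 5′UTR, chr1:45925471-45925487, minus strand: caacttCAGCTACAGTGTTAGCTaagtt
*Tfrc*, 3′UTR, chr16:32631225-32631241, plus strand: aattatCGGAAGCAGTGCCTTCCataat
*Tfrc*, 3′UTR, chr16:32631604-32631620, plus strand: cattatCGGGAGCAGTGTCTTCCataat
*Tfrc*, 3′UTR, chr16:32631669-32631685, plus strand: ctatatCGGAGACAGTGATCTCCatatg
*Tfrc*, 3′UTR, chr16:32631716-32631732, plus strand: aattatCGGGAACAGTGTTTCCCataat
*Tfrc* held 4 matches, all in its 3′UTR, and *Fth1*, *Ftl1* and *Slc40a1* 1 each in the 5′UTR. Of 21877 protein-coding genes, 31 (0.142%) had a match in a 5′UTR and 129 (0.590%) in a 3′UTR. The letters with a fully paired stem were not found in the untranslated regions of the other 6 genes, *Slc11a2* among them. Elements with other letters or with an unpaired base in the stem would be missed, so that these 6 are not shown to lie outside that control.

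The promoters of the hepcidin genes are shown because *Hamp* and its neighbour *Hamp2* are close copies that can be compared base by base. The 150 bases before each start are given from RefSeq on GRCm38.p6, with the BMP-responsive letters GGCGCC and the STAT letters TTCNNNGAA in capitals. Each motif reads the same on both strands, and they did not overlap. The *Hamp2* stretch lies inside the span of the gene in GENCODE M21, chr7:30922372-30924681, whose start is further upstream. The distances below count from the RefSeq starts, and which start is used in these livers was not tested.
*Hamp*, chr7:30944030-30944179, minus strand: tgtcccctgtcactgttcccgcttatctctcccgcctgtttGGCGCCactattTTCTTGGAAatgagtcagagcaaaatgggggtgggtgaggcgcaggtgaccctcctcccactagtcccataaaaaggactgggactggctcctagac
*Hamp2*, chr7:30924182-30924331, minus strand: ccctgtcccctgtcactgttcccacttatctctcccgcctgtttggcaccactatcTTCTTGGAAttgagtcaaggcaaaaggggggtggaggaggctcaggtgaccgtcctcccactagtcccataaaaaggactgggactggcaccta
Of 153 aligned columns, 135 (88.2%) were identical. GGCGCC began 109 bases before the start of *Hamp*, and *Hamp2* carried the change G4A there, counted from 1 at the first base of the element, with the *Hamp* base first. The STAT letters began 97 bases before the start of *Hamp* and 94 before that of *Hamp2*. Among 32851 promoters of 250 bases, 9.59% held GGCGCC and 7.02% held TTCNNNGAA.

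The 6 libraries held between 44040160 and 46050030 clean reads, of which 91.63% to 93.66% were mapped. For each gene the table gives 1 normalized value per genotype, in reads divided by DESeq2 size factors, which combines the 3 libraries. Such a pair has no spread, so that for most genes below a difference between WT and KO is a description without a test. The ratios were shrunken toward 0: in 875 weakly expressed genes whose reads could be recovered, the log2 ratio of the deposited values had a median of 0.807 of that of the reads (5th to 95th percentile 0.679 to 0.869). *Txndc5* itself had 2697 normalized reads in WT and 90.8 in KO, with a log2 ratio of −4.89. The hepatocyte genes *Alb*, *Apoa1*, *Ttr*, *Cps1* and *Tat* summed to 2208276 normalized reads in WT and 2027021 in KO, and *Alb*, which encodes albumin, had a log2 ratio of 0.00. *Apoa1* and *Ttr*, the genes of apolipoprotein A-I and transthyretin, had log2 ratios of −0.40 and −0.26, about as large as those of the hepcidin genes.

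None of the 10 genes was past 1.5-fold, against 836 of the 11367 genes with a mean of at least 10 normalized reads (7.35% called, 1.57% higher and 5.79% lower in KO). At 2-fold 0 of the 10 were counted, with 0.158% of genes higher, 0.739% lower and 0.897% in all. At 1.2-fold *Hamp2* and *Tfrc* were lower and none was higher, with 21.1% of genes lower, 11.7% higher and 32.8% in all. Of the 10, 2 were higher and 8 lower in KO as deposited. The log2 ratios of KO over WT ran from −0.39 to 0.20 with a median of −0.07, beside a median of −0.05 over the 11367 genes. Of the 8 lower genes, *Trf* and *Ftl1* turned to higher when the ratios were centred on that median, and *Slc40a1* and *Hfe* as well when both genotypes were scaled to the same sum.

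**Figure D1:**
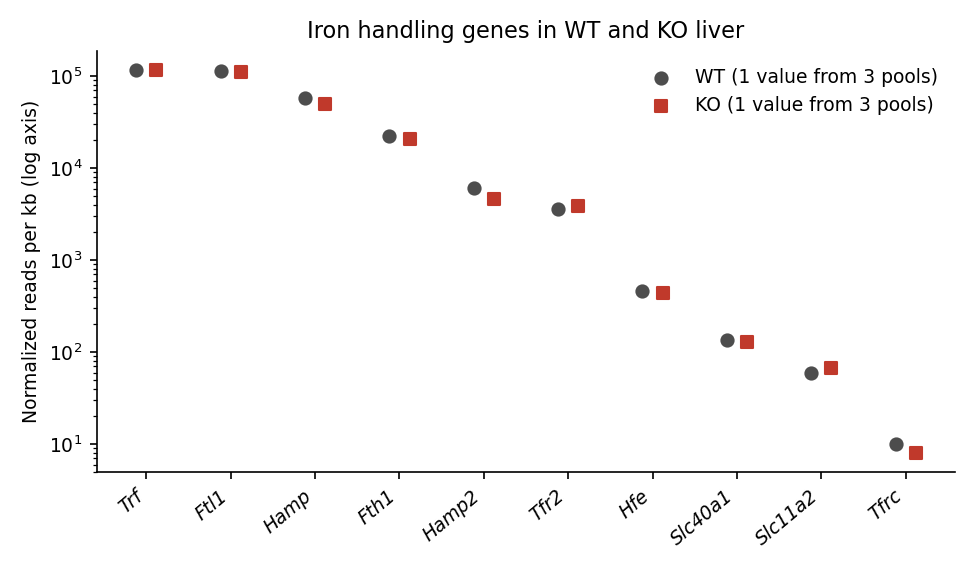
Normalized reads per kb of transcript (log axis) of the 10 iron genes in WT and KO liver, 1 point per genotype as deposited, without error bars since the table holds no value per library. Points of the same gene lie close together, from *Trf* at 117044 in WT down to *Tfrc* at 8.01 in KO, and no pair is 1.5-fold apart.

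Hepcidin had the largest deposited difference of the group in *Hamp2* and a smaller one in *Hamp*. *Hamp* (NCBI Gene 84506, chr7:30942368-30944032, minus strand), which encodes the active hormone in mice, had 23804 normalized reads in WT and 20273 in KO, a difference of −14.8% and a log2 ratio of −0.23. *Hamp2* (66438, chr7:30922372-30924681, minus strand), the copy whose product has not been found to lower plasma iron in mice, had 2644 in WT and 2011 in KO, a difference of −23.9% and a log2 ratio of −0.39. Both stayed below 0 under every scaling, with *Hamp* between −0.23 and −0.14 and *Hamp2* between −0.39 and −0.30. Among the 11367 genes, 38.3% had a larger log2 ratio in size than *Hamp* and 17.1% a larger one than *Hamp2*. Per kb of transcript, *Hamp* had 58059 normalized reads in WT and 49447 in KO, and *Hamp2* had 6022 and 4582. The level of *Hamp* was thus 9.64 times that of *Hamp2* in WT and 10.8 times in KO. In spite of the like promoters, no window of 100 bases was shared between their transcripts, or with any other gene (0 of 311 windows in *Hamp*, 0 of 338 in *Hamp2*).

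The genes of the iron sensor differed little. *Tfr2* (50765, chr5:137569840-137587481, plus strand), the receptor by which hepatocytes sense iron-loaded transferrin, had 12824 normalized reads in WT and 13806 in KO, corresponding to a log2 ratio of 0.11. *Hfe* (15216, chr13:23702034-23710854, minus strand), the membrane protein mutated in the commonest form of hereditary haemochromatosis, had 794 in WT and 748 in KO, which is a log2 ratio of −0.09 that became 0.01 with both genotypes scaled to the same sum. Of 5 genes listed for sensing at the hepatocyte surface, 0 were past 1.5-fold, and the median log2 ratio was 0.11. The list's largest ratios were those of *Neo1*, which encodes the hemojuvelin-binding receptor neogenin, at 0.23 and of *Hjv*, the gene of hemojuvelin, at 0.15. *Tmprss6*, the protease that restrains hepcidin, had a log2 ratio of −0.07 and was added for its role after its value was seen.

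Transferrin, the plasma carrier of iron, was the most abundant of the 10 transcripts per length. *Trf* (22041, chr9:103204001-103230444, minus strand) had 272947 normalized reads in WT and 270270 in KO, with a log2 ratio of −0.01 that became 0.03 after centring and 0.08 after scaling to the same sum. Per kb it had 117044 normalized reads in WT and was the 16th of the 16123 genes, by the mean of both genotypes. Of its windows of 100 bases, 1912 of 2472 (77.3%) also occur in transcripts of *Gm20425*, a gene model that overlaps it and has no row in the table. How reads from these windows were assigned is not known, so that the value of *Trf* is uncertain to an extent that was not tested. *Slc11a2* (18174, chr15:100387898-100425072, minus strand), which encodes the ferrous iron transporter DMT1, had 254 normalized reads in WT and 291 in KO, the highest ratio of the 10 with a log2 value of 0.20. Of 7 genes listed for transferrin uptake, 0 were past 1.5-fold and the median log2 ratio was −0.01. Their largest ratios were 0.32 in *Slc39a14*, which encodes the hepatocyte importer of iron not bound to transferrin, and −0.32 in *Tfrc*.

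*Tfrc* (22042, chr16:32608920-32632794, plus strand), the transferrin receptor of dividing and erythroid cells, was the least expressed of the 10 and the only one whose reads per library could be recovered. The deposited values were 49.2 normalized reads in WT and 39.4 in KO. The KO libraries are told apart by their size factors, and *Tfrc* had 67, 21 and 37 reads in those at 1.31, 1.04 and 0.886, or 51.1, 20.3 and 41.8 normalized reads. In WT it had 119, 38 and 10 reads at size factors of 1.22, 0.879 and 0.818, or 97.2, 43.2 and 12.2 normalized reads. The WT libraries held both the highest and the lowest value, so that the groups overlapped throughout. The means were 37.7 ± 15.8 in KO and 50.9 ± 43.0 in WT (SD, n = 3 pools each), and the difference of −13.2 normalized reads did not exceed the spread (two-sided exact permutation test, p = 0.8, where 3 against 3 cannot go below 0.1). These p-values measure the spread between pools. Without the WT library with a size factor of 1.22 the difference was 9.98. Without the largest library of each genotype, a choice made after the data were seen, it was 3.30. The direction of the difference in means thus rested on that WT library. It was the highest of the 6 libraries in 1323 of 3307 weakly expressed genes, against 435 for the KO library with a size factor of 1.31. With limma on those 3307 genes the log2 difference of *Tfrc* was −0.09 (SE 0.72) with an adjusted p of 0.999. This log2 difference turned to 0.58 without the WT library at 1.22. It was also above 0 without the KO library at 1.04 (0.29) and without the WT library at 0.879 (0.006), so that its sign is not settled.

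**Figure D2:**
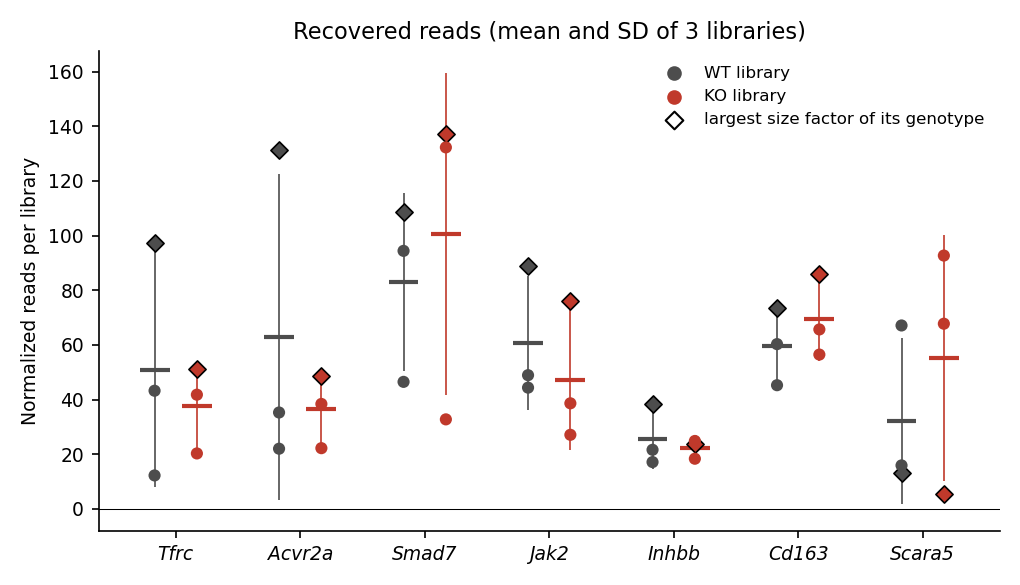
Normalized reads of *Tfrc* and of other weakly expressed iron genes in each of the 6 recovered libraries, 1 point per library (WT grey, KO red, a diamond for the largest size factor of each genotype), with the mean of the 3 libraries as a horizontal bar and the SD as a vertical line. In *Tfrc* the WT library with a size factor of 1.22 lies at 97.2, above the other 5 libraries, and KO points fall between the WT points.

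Ferritin stores iron in a shell of heavy and light chains. *Fth1* (14319, chr19:9980598-9985098, plus strand), the heavy chain with ferroxidase activity, had 21087 normalized reads in WT and 19626 in KO, corresponding to a log2 ratio of −0.10. *Ftl1* (14325, chr7:45457944-45459884, minus strand), the light chain, had 111298 in WT and 108312 in KO, which is a log2 ratio of −0.04 that became 0.01 after centring and 0.05 after scaling to the same sum. Per kb, *Ftl1* had 112879 normalized reads in WT and 109850 in KO, and *Fth1* 22385 and 20834. Of the 100-base windows of *Ftl1*, 683 of 869 (78.6%) also occur in transcripts of 6 other genes, among them the pseudogene *Ftl1-ps1*, and none of these has a row in the table, so that its value is uncertain. For *Fth1* the share was 8 of 1963 windows (0.408%). Of 9 genes measured in the list of ferritin and cytosolic iron, 0 were higher and 1 lower past 1.5-fold. Over the 11367 genes 5.79% were lower, and the median log2 ratio of the 9 was 0.05. The lower gene was *Ireb2*, which encodes iron regulatory protein 2, one of the proteins that bind the elements shown above, with 259 normalized reads in WT and 147 in KO and a log2 ratio of −0.81. *Aco1*, the gene of the other binding protein, had a log2 ratio of 0.22 and *Ncoa4*, the receptor that takes ferritin to lysosomes, one of 0.34. These 2 were added for their roles after their values were seen.

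*Slc40a1* (53945, chr1:45908068-45926523, minus strand), which encodes ferroportin, had 454 normalized reads in WT and 436 in KO, with a log2 ratio of −0.06 that became 0.03 after scaling to the same sum. Of 2 export genes with a mean of at least 10, 0 were past 1.5-fold, and *Cp*, the plasma ferroxidase ceruloplasmin, had a log2 ratio of −0.10. Ferroportin is prominent in Kupffer cells as well as hepatocytes. The Kupffer cell markers *Clec4f*, *Adgre1*, *Vsig4*, *Timd4*, *Cd5l* and *Marco* were all detected and summed to 2030.4 normalized reads in WT and 2379 in KO. Of the 6, 1 was higher past 1.5-fold (*Marco*, log2 ratio 0.62), beside 1.57% of the 11367 genes, and the median was 0.28. They did not move as a set: *Clec4f*, *Timd4* and *Vsig4* had log2 ratios of −0.05, −0.02 and 0.11. *Adgre1* had 0.50 and *Cd5l* 0.46, and *Cd5l* alone had 832 normalized reads in WT and 1142 in KO. In the same order of libraries as for *Tfrc*, *Marco* had 52.6, 49.2 and 129.8 normalized reads in KO and 13.9, 69.4 and 48.9 in WT, which overlapped (two-sided exact permutation test, p = 0.4), and the log2 ratio of its means was 0.81, or 0.38 without the WT library with a size factor of 1.22. In liver RNA, fewer cells of a type and less RNA per cell cannot be told apart, and the part of Kupffer cells in the *Slc40a1* value was not tested.

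By level per kb of transcript the order was *Trf*, *Ftl1*, *Hamp*, *Fth1*, *Hamp2*, *Tfr2*, *Hfe*, *Slc40a1*, *Slc11a2* and *Tfrc* in both genotypes. *Trf* and *Ftl1* were neighbours at 117044 and 112879 normalized reads per kb in WT. *Hfe* had 461 in WT and 434 in KO, *Slc40a1* 134 and 129, and *Slc11a2* 59.2 and 67.8, on the same scale. *Tfrc* stood at 9.995 and 8.01. Without values per library, it could not be tested which neighbours in this order differ beyond their spread.

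**Figure D3:**
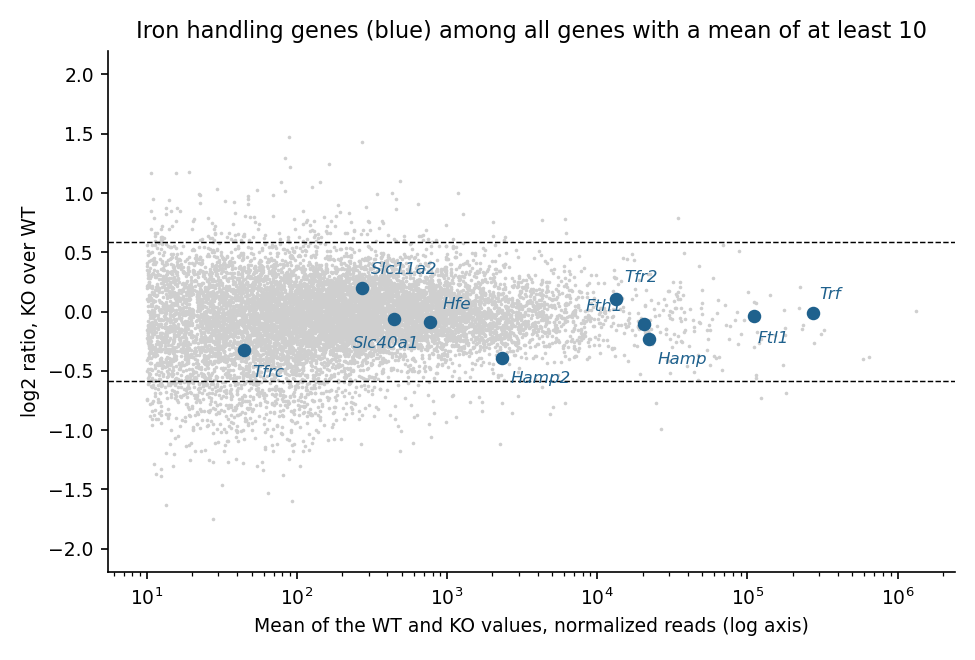
Log2 ratio of KO over WT against the mean of both genotypes in normalized reads (log axis), with all genes with a mean of at least 10 in grey and the 10 iron genes named. Dashed lines mark 1.5-fold and 4 genes lie outside the vertical axis. The 10 genes lie between −0.39 and 0.20, inside the dashed lines, from the weakly expressed *Tfrc* to the abundant *Trf*, and the negative signs of *Trf* and *Ftl1*, and of *Slc40a1* and *Hfe*, turn under other scalings.

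The signals that reach the hepcidin promoters were followed with the same measure. Of 11 measured genes of BMP and SMAD signalling, 0 were higher and 2 lower past 1.5-fold, beside 5.79% of the 11367 genes lower. The median log2 ratio of the 11 was −0.18, beside −0.05 over the 11367 genes. *Bmpr2*, a type II BMP receptor, had 100.2 normalized reads in WT and 61.4 in KO, corresponding to a log2 ratio of −0.71. *Acvr2a*, the other type II receptor of this branch in hepatocytes, had a deposited log2 ratio of −0.59, just past 1.5-fold, and was no longer past it after centring, scaling to the same sum, or adding a pseudocount of 1 or 10. Its recovered normalized reads were 48.8, 22.2 and 38.4 in the KO libraries and 131, 35.3 and 22.0 in the WT libraries, in the order of size factors given for *Tfrc*. The WT library with a size factor of 1.22 again stood highest and the groups overlapped, with means of 36.5 ± 13.4 in KO and 62.9 ± 59.7 in WT (SD, n = 3 each, two-sided exact permutation test, p = 0.9). The log2 ratio of the *Acvr2a* means was 0.35 without that WT library alone and 0.08 without the largest library of each genotype. Reads per library of *Bmpr2*, and of *Ireb2* above, were not recovered, so that their lower values could not be checked without that WT library. The ligands *Bmp6* and *Bmp2*, added for their roles after their values were seen, had log2 ratios of 0.10 and −0.05. Both come from sinusoidal endothelium, whose 6 markers summed to 2547 normalized reads in WT and 2401 in KO, with 0 past 1.5-fold and a median of −0.09.

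Of 7 BMP target genes, 0 were past 1.5-fold, and the median log2 ratio was −0.01. *Atoh8*, a transcription factor that follows iron together with hepcidin, had 1078 normalized reads in WT and 819 in KO, which is a log2 ratio of −0.40. *Smad7*, an inhibitor of the pathway, had a deposited log2 ratio of 0.22, with 137, 132 and 32.7 normalized reads in the KO libraries and 109, 94.4 and 46.5 in the WT libraries. The KO libraries held both the 2 highest values and the lowest one (two-sided exact permutation test, p = 0.6). *Id1*, a common readout of hepatic BMP signalling, had a log2 ratio of 0.16, and the related *Id2* and *Id3* went the other way with −0.21 and −0.11. These *Id* genes were added after their values were seen.

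On the inflammatory branch, 1 of 7 genes of IL-6 and STAT3 signalling with a mean of at least 10 was higher past 1.5-fold and 0 lower. Over the 11367 genes 1.57% were higher, and the median log2 ratio of the 7 was 0.12. The higher gene was *Il6ra*, the IL-6 receptor, with 349 normalized reads in WT and 533 in KO and a log2 ratio of 0.61. *Il6* itself had 1 read in the 3 KO libraries and 1 in the 3 WT libraries. *Jak2*, a kinase upstream of STAT3, had 76.2, 38.6 and 27.1 normalized reads in the KO libraries and 89.0, 44.4 and 48.9 in the WT libraries, which overlapped (two-sided exact permutation test, p = 0.5). *Inhbb*, the gene of the activin B subunit that can also raise hepcidin, had 23.6, 18.3 and 24.8 in KO and 38.4, 21.6 and 17.1 in WT, within the spread (two-sided exact permutation test, p = 0.9). Acute phase genes, which share the STAT3 signal with hepcidin, had a median log2 ratio of 0.79. Of these, 4 of 8 were higher past 1.5-fold and 0 lower, beside 1.57% of the 11367 genes higher. The 4 were *Saa1*, *Saa2*, *Lcn2*, which is also in the siderophore list below, and *Orm2* with a log2 ratio of 1.24. *Saa1*, *Saa2* and *Lcn2* had been reported as raised by the paper from these same data, and also by RT-qPCR in single mice. *Saa1* and *Saa2*, the serum amyloid A genes, had 542 and 299 normalized reads in WT and 4748 and 4056 in KO. *Saa3* and *Orm1* of the same list had log2 ratios of 0.20 and 0.35, and the recovered libraries of *Saa3* overlapped (two-sided exact permutation test, p = 0.8). *Hp*, the gene of haptoglobin, had a log2 ratio of 0.17 and *Fgg*, a fibrinogen chain, one of −0.30, beside −0.23 in *Hamp* and −0.39 in *Hamp2*.

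**Figure D4:**
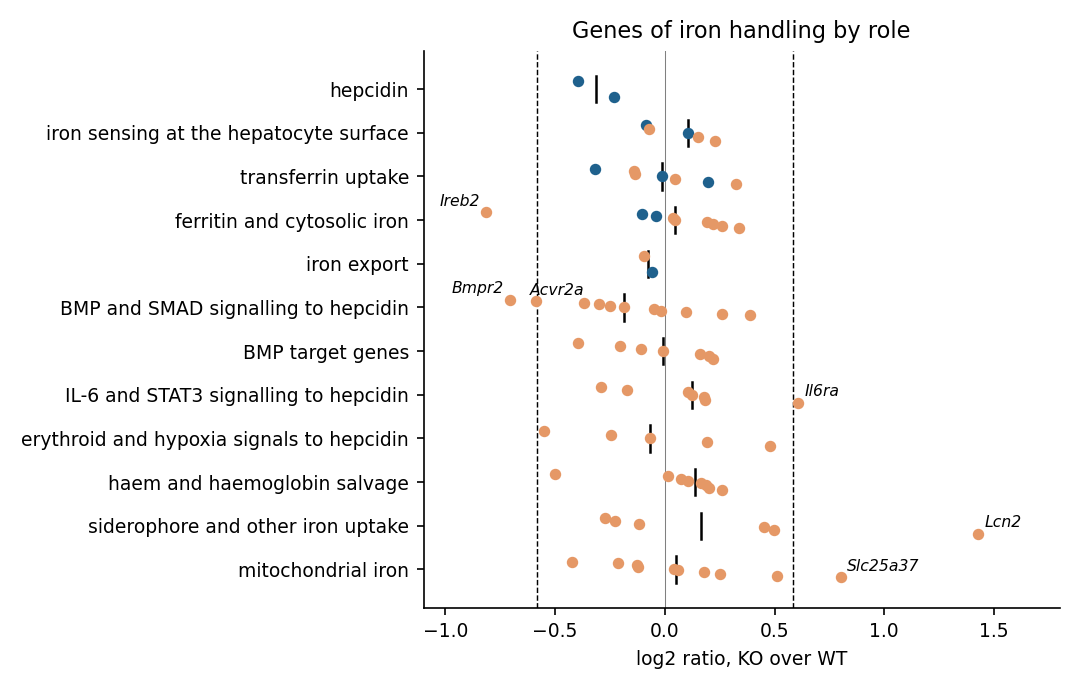
Log2 ratio of KO over WT for the iron genes with a mean of at least 10 normalized reads, grouped by role, with the 10 chosen genes in blue, the others in orange, the median of each group as a black bar and 1.5-fold as dashed lines. The 6 named genes lie at or past a dashed line, 3 to the right and 3 to the left, and no blue point does. Signs of *Trf*, *Ftl1*, *Slc40a1* and *Hfe*, close to 0, depend on the scaling.

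Of 5 measured erythroid and hypoxia signals to hepcidin, 0 were past 1.5-fold, with a median log2 ratio of −0.07. *Hif1a* and *Epas1*, which encode the oxygen-regulated subunits HIF-1α and HIF-2α, had log2 ratios of −0.55 and 0.48. *Epas1* had 1464 normalized reads in WT and 2043 in KO, and *Hif1a* had 200.2 and 137. For haem and haemoglobin salvage, 0 of 8 genes were past 1.5-fold and the median was 0.14. The largest ratios there were −0.50 in *Flvcr1*, a haem exporter, and 0.26 in *Lrp1*, the receptor that clears haemopexin-bound haem. *Flvcr1* had 7, 9 and 11 reads in the KO libraries and 31, 6 and 10 in the WT libraries, which overlapped (two-sided exact permutation test, p = 0.5), and the log2 ratio of its means was −0.11 without the WT library with a size factor of 1.22 and 0.15 without the largest library of each genotype. *Cd163*, the haemoglobin receptor of macrophages, had 86.1, 65.7 and 56.5 normalized reads in the KO libraries and 73.5, 60.3 and 45.2 in the WT libraries, with overlap (two-sided exact permutation test, p = 0.5).

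Of 6 genes of siderophore and other iron uptake with a mean of at least 10, 1 was higher past 1.5-fold and 0 lower. Over the 11367 genes 1.57% were higher, and the median log2 ratio of the 6 was 0.17. The higher gene was *Lcn2*, whose product lipocalin 2 binds iron-loaded siderophores and is also an acute phase protein. It had 147 normalized reads in WT and 396 in KO and a log2 ratio of 1.43. *Scara5*, a ferritin receptor, had 5.33, 92.7 and 67.7 normalized reads in the KO libraries and 13.1, 67.1 and 15.9 in the WT libraries, a spread within each genotype of over 50 normalized reads.

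Among 10 genes of mitochondrial iron, 1 was higher and 0 lower past 1.5-fold, beside 1.57% of the 11367 genes higher. The median log2 ratio of the 10 was 0.05. *Slc25a37*, the gene of mitoferrin 1, which imports iron into the mitochondria of developing red cells, had 110.2 normalized reads in WT and 192 in KO, with a log2 ratio of 0.80. The red cell markers *Hba-a1*, *Hba-a2*, *Hbb-bs*, *Hbb-bt*, *Slc4a1* and *Alas2* were also higher in KO as deposited. Without values per library, it could not be seen whether they vary together with *Slc25a37*. All 6 were detected and summed to 118829.6 normalized reads in WT and 180430.4 in KO. Of the 6, 3 were higher past 1.5-fold, with a median of 0.67, beside 1.57% of the 11367 genes. *Slc4a1* among them had been reported as raised by the paper from these same data, and also by RT-qPCR in single mice. *Tfrc*, also an erythroid gene, had a deposited log2 ratio of −0.32, with a sign that is not settled, as described above. The part of red cells in these values was not tested.

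Over all the iron lists, 82 of 87 genes were in the table and 79 had a mean of at least 10. Past 1.5-fold were 3 higher in KO (3.797%) and 3 lower (3.797%), 7.59% in all, with a median log2 ratio of 0.04, beside 1.57% higher, 5.79% lower and 7.35% in all among the 11367 genes. Scaled to the same sum, the lists gave 5 higher and 2 lower, and the share over all genes was not counted under that scaling. The 3 lower genes, *Ireb2*, *Bmpr2* and *Acvr2a*, had a median transcript length of 5808 bases, beside 3687.5 for all lower genes, 3460 for all higher genes, 3375 for the 3 higher iron genes and 2791 for the 11367 genes. Reads per library were recovered for 15 of the 20 iron genes with a sum of at most 600 normalized reads, and in 0 of the 15 did the genotypes not overlap. The 6 of these not described above, *Bambi*, *Bdh2*, *Heph*, *Slc22a17*, *Steap1* and *Steap2*, gave p from 0.4 to 0.9 (two-sided exact permutation tests). Of the 3307 genes with sums from 60 to 400, 3.08% did not overlap with KO higher and 2.63% with KO lower. In limma, 0 of the 11 iron genes in that range had an adjusted p under 0.05, and 0 an unadjusted p under 0.05, against 1 (0.0302%) and 63 (1.91%) of the 3307 genes.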

How the data were processed

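For each of 16123 genes the authors deposited 1 expression signal per genotype, in reads divided by DESeq2 size factors, combining 3 libraries. The midpoint of both signals is the mean over the 6 libraries. Further deposited columns hold the authors' log2 ratio, p-value and adjusted p-value, and they were not used. The authors also deposited counts of reads and percent values of mapping and ribosomal RNA per library. The submitters' processing notes name mm10, HISAT2, StringTie, Cufflinks, GATK, Bowtie2 and RSEM without roles.

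From the deposited signals, log2 ratios of KO over WT were calculated. A gene was counted as called past 1.5-fold with a mean of at least 10. Whole reads per library were recovered by enumerating sums up to 600 normalized reads, within 2.5 roundings of the deposited value, with the worth of 1 read read off single-read values that recurred in 20 or more genes. Of 8081 genes with sums up to 400, 8063 (99.8%) were resolved, and of 979 above, 487 (49.7%). Between 84664 and 196805 reads per library were recovered, so that few reads per gene limit the precision. Recovered libraries carry no pool number. Single genes were compared by exact permutation tests, and 3307 genes with sums from 60 to 400 by limma 3.58.1 on log2(normalized reads + 1) with Benjamini-Hochberg adjustment (R 4.3.3, scipy 1.17.1). Recovery and limma were tested on simulated data.

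Positions and untranslated regions came from GENCODE M21 on GRCm38, the build the notes call mm10, and promoters from RefSeq. *Hjv* and *Flvcr1* were matched through NCBI identifiers, since the table lists them as *Hfe2* and *Mfsd7b*. The genes, lists and recovery were chosen with earlier results of these data known. Named were the 10 genes, *Txndc5*, list genes past 1.5-fold or otherwise the 2 with the largest ratios, list genes with recovered reads, markers and those said to be added. *Ftmt*, *Hephl1*, *Bmpr1b*, *Erfe* and *Epo* have no row and were not analysed here. Certain list genes are not reported here and enter no count of the lists.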

Additional observations from a re-analysis of the deposited data

How the results depend on the processing

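None of the 10 genes passed 1.5-fold under the pseudocounts, centring or scaling tried. Of the list genes past 1.5-fold, the 3 higher in KO became 5 after scaling to the same sum (chosen after seeing the data), 1 at 2-fold and 10 at 1.2-fold. The 3 lower became 2 after that scaling, after centring and with a pseudocount of 1 or 10, each time without *Acvr2a*. They became 1 with a mean of at least 100, 0 at 2-fold and 13 at 1.2-fold. The counts at 2-fold and 1.2-fold were out of 79 list genes. Over the 11367 genes, 0.158% were higher and 0.739% lower at 2-fold, and 11.7% higher and 21.1% lower at 1.2-fold. For the other settings the share over all genes was not counted. The difference of *Tfrc* in normalized reads ran from −32.5 to 9.98 when single libraries were left out, and was 3.30 without the largest library of each genotype (also chosen after seeing the data). Its limma log2 difference ran from −0.86 to 0.58 over the libraries left out, and was 0.32 without both of the largest. The number of genes that limma called went from 1 to between 0 and 1 with single libraries left out and to 2 (146 with an unadjusted p under 0.05) without both of the largest. The causes were not tested. With 1 deposited value per genotype and the authors' p-values not used, differences of the strongly expressed genes were not set against a spread here. No paired analysis was possible because the genotypes share only pool number 2 and the recovered libraries carry no numbers.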
